A study of Mus musculus with 3 samples.

Results

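The cells described here are oligodendrocyte precursor cells (OPCs) in single-cell data from the dorsal cortex of mice at postnatal day 2. A cell was taken as an OPC when it held at least 1 UMI (1 counted RNA molecule) of Pdgfra and at least 1 of Sox10, and none of the excitatory neuron genes Slc17a7, Neurod2 and Neurod6. The search was made in 36295 cells that had 1000 or more genes detected and less than 10% of UMIs from mitochondrial genes, and 401 met this rule: 130 of 9961 control cells, 125 of 13199 Emx1-Cre mutant cells and 146 of 13135 hGFAP-Cre mutant cells. Because the cells were selected on Pdgfra and Sox10 counts, their own levels are given as a description.

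The study's title concerns NOTCH, ERK and SHH signalling in the fate of cortical glia and olfactory bulb interneurons. The control carried floxed Map2k1 and Map2k2 alleles, with WT in its genotype field. The Emx1-Cre and hGFAP-Cre mutants carried the same floxed alleles as a double conditional knockout, with Cre driven by Emx1, a gene of dorsal cortical progenitors, or by the human GFAP promoter, which acts in radial glia. In all 3 groups a dye, FlashTag (CellTrace Yellow), was put into the lateral ventricle at embryonic day 18, and tdTomato-positive cells were sorted after papain digestion. The labels do not name the allele that carries tdTomato, the number of animals, or whether the control had a Cre. There was 1 library per genotype and so no replicate: no test between genotypes was made, every difference is between single libraries, and every interval is a 95% interval that covers counting error only. The sex-linked genes also differed, with Xist at 2050 CPM (UMIs of the gene over all UMIs of the OPCs in that library, scaled so that libraries compare) in control OPCs, 0 in Emx1-Cre and 0.91 in hGFAP-Cre OPCs, and Ddx3y at 0, 47.8 and 47.6 CPM, so sex and genotype cannot be told apart.

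OPCs are the dividing cells from which oligodendrocytes, the myelin-forming glia, arise. In the dorsal cortex they come from Olig-expressing progenitors that pass through a stage with EGF receptor, and earlier waves enter from ventral forebrain regions. PDGF receptor alpha signals through RAS and the kinases MEK1 and MEK2, encoded by Map2k1 and Map2k2, to ERK, and this cascade is known to act on the number and maturation of oligodendrocyte lineage cells.

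OPCs in the 3 libraries differed in depth. The median control OPC had 8369 UMIs (range 4477 to 21134), the median Emx1-Cre OPC 3721 (2669 to 18510) and the median hGFAP-Cre OPC 6804 (3164 to 19140), against medians of 6533, 5306 and 5583 UMIs for all kept cells. The summed OPC counts came to 1176022, 585465 and 1093236 UMIs. The lowest UMI count of a deposited barcode was 500, 2644 and 3065, so barcodes entered the 3 files from different depths. Pairs of libraries shared between 34 and 54 kept barcodes, and no barcode was an OPC in more than 1 library. Scrublet called 4, 7 and 9 of the OPCs doublets, and these were kept in the main values.

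The chosen cells expressed the genes that define OPCs. Olig1, a transcription factor of the lineage, had a UMI in all control and hGFAP-Cre OPCs and in 98.4% of Emx1-Cre OPCs, against 5.88%, 2.80% and 0% of excitatory neurons. Triplets of values here and below are in the order control, Emx1-Cre, hGFAP-Cre. Olig2 had a UMI in 98.5%, 84.0% and 96.6% of OPCs. The 15 genes that stood out most over the other kept cells in every library were Pdgfra, Lhfpl3, Sox10, C1ql1, Olig1, Cntn1, Olig2, Sox8, Xylt1, Bcas1, Ncald, Nap1l5, Scrg1, Epn2 and Tril. Pdgfra was at 668 CPM in control OPCs, 859 in Emx1-Cre OPCs and 637 in hGFAP-Cre OPCs, and Sox10 at 307, 301 and 249 CPM. Only 1 OPC, in the Emx1-Cre library, had neither Olig1 nor Olig2.

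Near the threshold, 4, 8 and 12 OPCs held exactly 1 UMI of Pdgfra and 1 of Sox10, and all of these also held Olig1 or Olig2. The median OPC had 5, 4 and 4 UMIs of Pdgfra and 2, 1 and 2 of Sox10. Just outside the rule, 133, 148 and 77 cells with Pdgfra but no Sox10 held Olig1 or Olig2, as did 25, 21 and 87 cells with Sox10 but no Pdgfra. A further 30, 24 and 21 cells had both genes and were left out for an excitatory neuron UMI.

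Markers of most other cell types were low in the OPCs, and astroglial markers were not. Summed over their lists, endothelial, fibroblast, Schwann cell and blood markers came to 5.10 CPM or less in each library. Microglial markers came to 4.25, 44.4 and 2.74 CPM, with P2ry12 and Tmem119 at 0 in all 3 libraries, Cajal-Retzius markers to 3.40, 97.4 and 29.3 CPM, and excitatory neuron markers, 3 of which the rule set to 0, to 12.8, 41.0 and 9.15 CPM. Markers of excitatory intermediate progenitors came to 7.65, 23.9 and 13.7 CPM, with Neurog1 at 0 throughout. Astroglial markers came to 4508, 14662 and 7169 CPM, with Aqp4 at 0 in hGFAP-Cre OPCs, and 104, 96 and 120 OPCs held at least 2 of the 8 (80.0%, 76.8% and 82.2%). Nearly all of that was Fabp7, a fatty acid binding protein of radial glia and early glia, at 4207, 13982 and 6779 CPM. Fabp7 was also higher in microglia of the Emx1-Cre library, at 2588 CPM against 500 in the control and 734 in the hGFAP-Cre library, and the part of free RNA in these values was not tested. Ependymal markers came to 3.40, 321 and 21.95 CPM, with 0, 5 and 6 OPCs holding at least 2 of the 6 markers. Interneuron markers came to 120, 54.7 and 56.7 CPM (15, 3 and 8 such OPCs) and mural cell markers to 104, 11.96 and 15.6 CPM (3, 0 and 1 such OPCs). In the other kept cells interneuron markers came to 259, 19.8 and 105 CPM and mural cell markers to 96.2, 168 and 134 CPM. Interneuron markers in Emx1-Cre OPCs and mural cell markers in control OPCs were thus above the other cells of their library. Leaving out every OPC called a doublet, or with at least 2 markers of another type than astroglia, left 110, 111 and 128 cells.

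OPCs made up 1.31% of kept control cells (interval 1.09 to 1.55), 0.947% of Emx1-Cre cells (0.789 to 1.13) and 1.11% of hGFAP-Cre cells (0.939 to 1.31). The control share was the highest, and its interval overlapped those of both mutants. Such overlap does not show that the shares are equal. With every cell thinned to 3000 UMIs and the rule applied again, the shares were 0.794% (0.623 to 0.998), 0.739% (0.590 to 0.912) and 0.624% (0.497 to 0.774), which also overlapped. Among cells without excitatory neuron genes the OPC shares were 3.38% (2.83 to 3.996), 1.98% (1.65 to 2.35) and 2.15% (1.82 to 2.52), and there the control interval lay above both others. Thinned, the shares over that denominator were 1.69% (1.33 to 2.12), 1.21% (0.971 to 1.499) and 1.06% (0.847 to 1.32), and the control interval overlapped that of Emx1-Cre cells and just cleared that of hGFAP-Cre cells. The sort sets which cells enter each denominator.

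The closest neighbours of OPCs in the data, cells with Egfr and an Olig gene but neither Pdgfra nor Sox10, differed more. They were 8.70% of kept control cells (8.16 to 9.28), 2.75% of Emx1-Cre cells (2.48 to 3.04) and 1.58% of hGFAP-Cre cells (1.37 to 1.80). After thinning the shares were 5.66%, 1.05% and 0.67%. Set beside the OPCs, there were 867 such progenitors to 130 OPCs among control cells, 363 to 125 among Emx1-Cre cells and 207 to 146 among hGFAP-Cre cells.

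**Figure D1:**
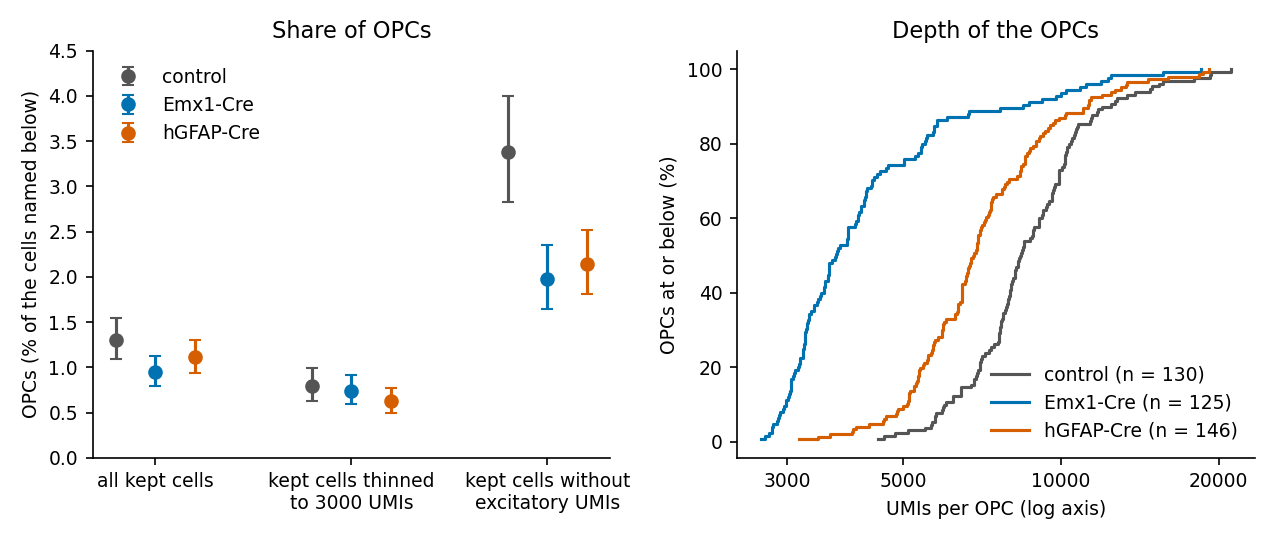
Left, OPCs as a percentage of all kept cells, of kept cells thinned to 3000 UMIs and of kept cells without excitatory neuron UMIs, by library, with 95% Clopper-Pearson intervals. Right, the cumulative percentage of OPCs by UMIs per cell (log axis); the Emx1-Cre curve lies at the lowest depths, with a median of 3721 UMIs against 8369 and 6804.

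Differences in gene level were read from UMIs summed over the OPCs of a library, as CPM, with a pseudocount of 5 CPM in log2 ratios. A gene counts as called where this ratio is 2-fold or more in either direction, among genes at 20 CPM or more in either library. CPM in these 3′ tag libraries are not per transcript length, so levels are compared between libraries and not between genes. Of all genes at that level, 10.4% were called higher and 6.7% lower in Emx1-Cre over control OPCs (751 and 482 of 7189). In hGFAP-Cre over control the shares were 5.16% higher and 4.71% lower (356 and 325 of 6901), and in hGFAP-Cre over Emx1-Cre 1.45% higher and 3.36% lower (100 and 232 of 6913). The median log2 ratio of all these genes was 0.06, -0.01 and -0.06. The first 2 comparisons share the control library, so a value that is high or low in the control moves both. These shares of all genes are the background for every count of called list members below.

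The genes of the early progenitor stage were lower in the OPCs of both mutants. In Emx1-Cre OPCs 10 of the 12 listed genes were called lower and none higher, with a median log2 ratio of -1.92. In hGFAP-Cre OPCs 9 of 12 were lower and none higher, with a median of -1.17. Over the alternative settings tried the 2 medians ranged from -2.12 to -1.72 and from -1.28 to -0.95. Directly between the mutants, Btg2, Dll3 and Dll1 were higher in hGFAP-Cre OPCs among 10 measured, with a median of 0.72.

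Sox4, a transcription factor of immature neural and glial cells, was at 1715 CPM in control OPCs (1641 to 1792), 294 in Emx1-Cre (252 to 341) and 485 in hGFAP-Cre OPCs (444 to 528). All 130 control OPCs held a Sox4 UMI, against 86 of 125 and 114 of 146 in the mutants. The median cell was at 1693, 266 and 293 CPM, so the sums were not carried by a few cells. The level was 5.84-fold lower in Emx1-Cre and 3.54-fold lower in hGFAP-Cre OPCs. In microglia, which lie outside both Cre lineages, Sox4 was at 322, 180 and 191 CPM, a step in the same direction of 1.79-fold and 1.69-fold, and the part of free RNA in the OPC values was not tested.

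Egfr (GRCm38, chr11:16752203-16918158, plus strand), the EGF receptor, was at 134 CPM in control OPCs (113 to 156), 15.4 in Emx1-Cre (7.03 to 29.2) and 24.7 in hGFAP-Cre OPCs (16.3 to 35.9). It was detected in 50.8% of control OPCs (41.9 to 59.6), 4.0% of Emx1-Cre OPCs (1.31 to 9.09) and 10.3% of hGFAP-Cre OPCs (5.87 to 16.4). After thinning to 3000 UMIs the shares were 25.4%, 2.70% and 5.48%, and microglia, with median depths of 11194, 5984 and 7548 UMIs, gave 2.54%, 2.45% and 3.43% unthinned. The control thus held the high values by share of cells and by level, while the Emx1-Cre share lay near that of microglia. Egfr was 8.68-fold lower in Emx1-Cre and 5.41-fold lower in hGFAP-Cre OPCs.

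NOTCH ligands and modifiers of the same stage were lower as well. The NOTCH ligand Dll1 was at 145, 20.5 and 69.5 CPM, and Dll3, a divergent ligand that does not activate NOTCH in neighbouring cells, at 236, 46.1 and 113 CPM. For both ligands the control was highest and the Emx1-Cre library lowest, with no overlap of the intervals. Hes6, a bHLH factor that counters Hes1, was at 325, 82.0 and 140 CPM. Mfng, which glycosylates NOTCH receptors, was at 31.5, 8.54 and 6.403 CPM. Sox9 was called lower in both mutants, at 467, 229 and 148 CPM, while Sox11 (461, 379 and 258 CPM) and Hes5 (82.5, 147 and 98.8 CPM) were not called in either. Btg2, an antiproliferative gene of differentiating progenitors, was at 247, 22.2 and 75.01 CPM. In microglia Btg2 was at 377, 119 and 254 CPM and so was lowest in the Emx1-Cre library there too.

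**Figure D2:**
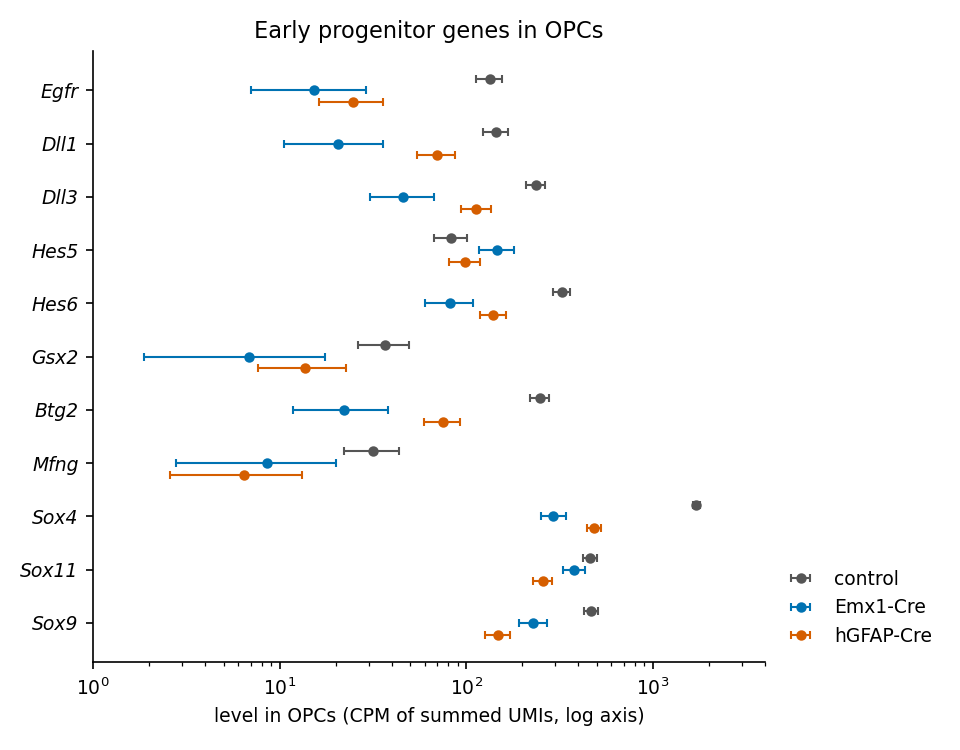
Levels of early progenitor genes in OPCs of each library (summed CPM on a log axis, with 95% Poisson intervals). The control points lie to the right of both mutants for every gene plotted except Hes5, with Sox4 at 1715, 294 and 485 CPM.

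Transcription factors of the bHLH class bind E-boxes such as CAGCTG, and Dll1, Dll3 and Hes6 are shown here as 3 of the 5 early progenitor genes that hold this motif before a start site. They were picked after their values were seen, and each was called lower in both mutants. The sequences are the 250 bases before a RefSeq transcript start (GRCm38.p6), written 5′ to 3′ on the gene's strand, with the motif in capitals. They are chr17:15376933-15377182 for Dll1, chr7:28301786-28302035 for Dll3 and chr1:91414039-91414288 for Hes6, all on the minus strand.
Dll1: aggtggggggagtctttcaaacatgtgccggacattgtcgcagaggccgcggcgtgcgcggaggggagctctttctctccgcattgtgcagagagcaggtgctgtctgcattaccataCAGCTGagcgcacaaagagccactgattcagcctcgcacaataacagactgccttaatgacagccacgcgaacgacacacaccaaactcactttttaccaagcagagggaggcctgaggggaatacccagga
Dll3: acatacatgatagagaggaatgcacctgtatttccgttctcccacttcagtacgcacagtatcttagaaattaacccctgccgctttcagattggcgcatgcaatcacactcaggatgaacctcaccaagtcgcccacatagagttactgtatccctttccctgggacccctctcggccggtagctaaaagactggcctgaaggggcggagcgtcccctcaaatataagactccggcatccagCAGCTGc
Hes6: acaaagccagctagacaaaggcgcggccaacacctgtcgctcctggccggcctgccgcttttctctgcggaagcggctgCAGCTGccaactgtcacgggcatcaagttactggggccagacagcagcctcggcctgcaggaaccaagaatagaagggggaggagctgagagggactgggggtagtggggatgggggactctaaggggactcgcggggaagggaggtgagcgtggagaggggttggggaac
The motif ends 126 bases before the start in Dll1, 1 base before it in Dll3 and 165 bases before it in Hes6. CAGCTG reads the same on both strands, so a single search covers both. A window was at hand for 9 of the 12 early progenitor genes. Of these 9, 5 held the motif in at least 1 window (Dll1, Dll3, Hes6, Sox4 and Sox11), or 55.6%. Of 27025 genes with a window, 14.7% held it. The list is short and was chosen with earlier results of these data known. These shares are therefore a description, and no enrichment was tested. Sox11 holds the motif and was not called lower, while Egfr and Btg2 have no CAGCTG in these windows and were among the lowest. A match is a run of letters and not a measured binding site.

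The same genes were set beside other cells of the same libraries. In the Egfr and Olig progenitors the early progenitor list had a median log2 ratio of -1.49 in the Emx1-Cre library (8 of 10 lower) and -0.46 in the hGFAP-Cre library (3 of 12 lower). In astroglia the medians were -1.05 (4 of 7 lower) and -1.01 (4 of 7), and in microglia -0.82 (2 of 7) and -0.33 (1 of 7). The OPC medians of -1.92 and -1.17 were the furthest below 0 in both mutants. Egfr, a member of the list, was required in the progenitors and excluded from the astroglia by definition. The medians also cover different numbers of genes, so they do not rank the cell groups. Whether the OPC medians differ from the other cells beyond library effects cannot be tested here.

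Within control OPCs, cells with and without Egfr differed in Gpr17. Gpr17, a receptor that marks committed precursors, had a UMI in 16.7% of the 66 control OPCs with Egfr (8.63 to 27.9) and in 43.8% of the 64 without it (31.4 to 56.7). The median depth of these cells was 9064 and 7973 UMIs, so the Egfr-positive cells were the deeper ones. In hGFAP-Cre OPCs the shares were 13.3% of 15 and 41.2% of 131 cells, with an interval of 1.66 to 40.5 for the smaller set.

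Among the genes of OPC identity some were higher and some lower in the mutants, with medians near 0. In Emx1-Cre OPCs 4 of 16 measured genes were higher (Lhfpl3, Pcdh15, Cspg4 and Emid1) and 3 lower (Olig1, Sox8 and Rlbp1), with a median log2 ratio of 0.14. In hGFAP-Cre OPCs Lhfpl3 and Emid1 were higher and Rlbp1 lower, with a median of -0.18, and none of the 16 was called between the mutants. The count includes Pdgfra and Sox10, which chose the cells, and leaves out Neu4, a sialidase at 0, 3.42 and 6.403 CPM.

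Olig1 (chr16:91269772-91271933, plus strand) was at 2486 CPM in control OPCs (2397 to 2578), 1189 in Emx1-Cre (1102 to 1280) and 1265 in hGFAP-Cre OPCs (1199 to 1334). Olig2, the partner factor needed to form the lineage, was at 878, 471 and 630 CPM. Both were highest in the control, Olig1 by 2.09-fold and 1.97-fold and Olig2 by 1.86-fold and 1.39-fold. Only the Olig1 difference of the Emx1-Cre library reached the 2-fold call, and its log2 ratio of -1.06 lay between -1.12 and -0.76 over the settings tried.

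Lhfpl3, a tetraspan protein enriched in OPCs, was at 289 CPM in control, 712 in Emx1-Cre and 703 in hGFAP-Cre OPCs, and Emid1 at 20.4, 116 and 94.2 CPM. The median cell was at 150, 713 and 716 CPM of Lhfpl3. Cspg4, the proteoglycan NG2, was at 77.4, 195 and 137 CPM and was detected in 16.9%, 44.1% and 29.5% of OPCs thinned to 3000 UMIs, against at most 1.43% of neurons unthinned. Pcdh15, a protocadherin, was at 51.0, 152 and 87.8 CPM. Its thinned shares were 17.7%, 34.2% and 27.4%, but 30.1% of control neurons also held a UMI, and with the rule applied again after thinning its log2 ratios came down from 1.49 to 0.82 and from 0.73 to 0.20. Rlbp1, a retinoid binding protein, was lower in both mutants at 352, 137 and 132 CPM.

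Of the remaining members only Sox8 was called, in Emx1-Cre OPCs. C1ql1 was at 366, 306 and 263 CPM, Cacng4 at 317, 284 and 240 CPM and Matn4 at 153, 120 and 95.1 CPM. Tnr was at 84.2, 106 and 90.6 CPM, Vcan at 98.6, 157 and 197 CPM and Megf11 at 29.8, 41.0 and 29.3 CPM. Sox8 was at 263, 106 and 181 CPM.

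**Figure D3:**
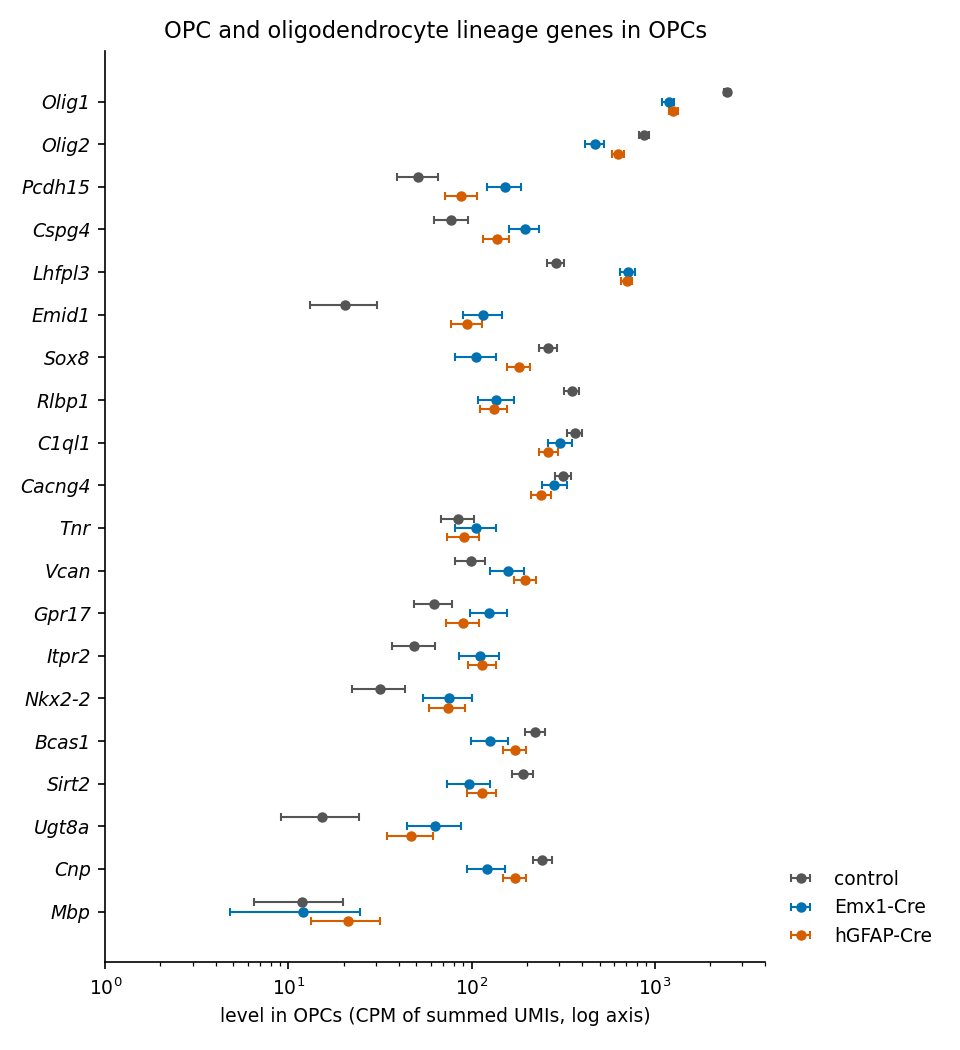
Levels in OPCs of OPC identity genes (Olig1 to Vcan), committed oligodendrocyte genes (Gpr17 to Sirt2) and myelin genes (Ugt8a to Mbp) in each library, as summed CPM on a log axis with 95% Poisson intervals. Lhfpl3, Emid1, Cspg4, Itpr2 and Nkx2-2 lie further right in both mutants, and Olig1 and Rlbp1 further left.

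Of the genes of the next stage, committed oligodendrocyte precursors, 7 and 8 of 12 reached the 20 CPM floor in the 2 comparisons with the control. Of the 7, Nkx2-2 and Itpr2 were higher in Emx1-Cre OPCs and none lower, and both were also the ones called higher among the 8 in hGFAP-Cre OPCs. Nkx2-2, a homeodomain factor that drives oligodendrocyte differentiation, was at 31.5 CPM in control, 75.2 in Emx1-Cre and 74.1 in hGFAP-Cre OPCs. Itpr2, an endoplasmic reticulum calcium channel that marks newly forming oligodendrocytes, was at 48.5, 111 and 114 CPM. For both genes the control interval lay below those of the mutants, and the mutants differed little from each other. With the rule applied again after thinning, the Nkx2-2 log2 ratios went from 1.14 to 0.86 in Emx1-Cre and from 1.12 to 0.97 in hGFAP-Cre OPCs, below the call. Those of Itpr2 went from 1.12 to 1.93 and from 1.16 to 1.74. Gpr17 was at 62.1, 125 and 89.6 CPM, with a UMI in 30.0%, 40.8% and 38.4% of OPCs. In the other direction Bcas1 was at 222, 126 and 173 CPM and Sirt2 at 191, 97.4 and 113 CPM, neither called. Fyn was at 323, 296 and 288 CPM, and Tcf7l2 at 49.3, 59.8 and 68.6 CPM. Zfp488, at 10.2, 8.54 and 22.9 CPM, was called between the mutants only. Myrf, the master regulator of myelin genes, was at 3.40, 5.12 and 7.32 CPM.

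Of 12 myelin genes, 2 reached 20 CPM in either library of the Emx1-Cre comparison and 3 in that of hGFAP-Cre. Mbp was at 11.9, 11.96 and 21.04 CPM, and Mag at 0, 1.71 and 0 CPM, where a count of 0 allows up to 2.55 CPM in the control and 2.74 in the hGFAP-Cre OPCs. Ugt8a, which makes the myelin lipid galactosylceramide, was the only member called, at 15.3, 63.2 and 46.7 CPM. Cnp was at 243, 121 and 172 CPM.

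The targeted genes themselves were detected in the OPCs of all 3 libraries. Map2k1 was at 24.7 CPM in control OPCs, 29.0 in Emx1-Cre and 18.3 in hGFAP-Cre OPCs, and Map2k2 at 149, 140 and 166 CPM, with overlapping intervals. Tags from the 3′ end need not cover the floxed part, so these levels do not check the deletion. Among the ERK response genes, those known to be induced by the cascade, the median log2 ratio was -0.22 in Emx1-Cre and -0.25 in hGFAP-Cre OPCs. In Emx1-Cre OPCs 2 of 15 were higher (Spry1 and Phlda1) and 2 lower (Etv5 and Epha4), and in hGFAP-Cre OPCs Spry1 was higher and Etv5 lower. None of 15 was called between the mutants. With the rule applied again after thinning the medians were 0.29 and -0.04, so the Emx1-Cre median has no stable side.

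Etv5 (chr16:22381309-22439719, minus strand), an ETS factor induced by FGF and ERK signalling, was at 104 CPM in control OPCs (86.2 to 124), 42.7 in Emx1-Cre (27.6 to 63.0) and 33.8 in hGFAP-Cre OPCs (23.8 to 46.7). After thinning it was detected in 25.4%, 11.7% and 9.59% of OPCs. The thinned shares in microglia were 9.33%, 4.38% and 8.22%, so the mutant OPCs were not far above them. Spry1, a feedback inhibitor of receptor tyrosine kinases, went the other way at 59.5, 159 and 136 CPM. In microglia Spry1 was at 26.3, 9.03 and 10.1 CPM, lower in the mutants, and in astroglia at 8.61, 64.6 and 3.15 CPM. Phlda1 was at 113, 340 and 192 CPM.

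Other feedback genes were not called in either mutant. Spry2 was at 200, 161 and 112 CPM, Spry4 at 86.7, 64.9 and 47.6 CPM and the ERK phosphatase Dusp6 at 35.7, 54.7 and 29.3 CPM. Etv4 was at 62.1, 39.3 and 54.0 CPM, Etv1 at 136, 97.4 and 97.0 CPM, and the cyclin Ccnd1 at 199, 309 and 272 CPM. In astroglia of the hGFAP-Cre library the same list had a median of -1.25, with 6 of 10 members lower, and in astroglia of the Emx1-Cre library -0.17, with 3 of 13 higher and 1 lower. The OPC medians were thus close to that of Emx1-Cre astroglia, and the difference was not tested.

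Of the cascade's own components 1 of 17, Rasa2, was higher in Emx1-Cre OPCs and none was called in hGFAP-Cre OPCs. Among all genes, 10.4% were called higher and 6.7% lower in Emx1-Cre OPCs, and 5.16% and 4.71% in hGFAP-Cre OPCs. Among receptor tyrosine kinases, 1 of 14 was higher in Emx1-Cre OPCs (Erbb3) and 5 lower (Egfr, Epha4, Igf1r, Tyro3 and Ddr1), while in hGFAP-Cre OPCs Egfr alone of 12 was called. Erbb3, the neuregulin receptor, had 0 UMIs in control OPCs and was at 25.6 CPM in Emx1-Cre and 10.98 in hGFAP-Cre OPCs, at least 10.0-fold and 4.30-fold higher against a floor of 3 counts. Igf1r, the receptor for insulin-like growth factors, was at 143, 64.9 and 74.1 CPM.

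Transcription factors that mark forebrain regions differed between control and mutant OPCs. Nkx2-1 (chr12:56531958-56536908, minus strand), a homeodomain factor of the ventral forebrain, had no UMI in the 130 control OPCs. At this depth the limit of 3 counts puts the share of cells with a UMI at up to 2.31%, which is not a limit on the cells that express it. It had a UMI in 19 of 125 Emx1-Cre OPCs, or 15.2% (9.41 to 22.7), and in 28 of 146 hGFAP-Cre OPCs, or 19.2% (13.1 to 26.5). The levels were 0, 39.3 and 32.0 CPM, at least 15.4-fold and 12.6-fold higher than the floor of 3 counts in the control. In every other group of cells examined, the share with Nkx2-1 was at most 1.45%, the value of control microglia, and neurons of all 3 libraries held none. The 3 OPCs with most UMIs held 30.4% of the Emx1-Cre and 20% of the hGFAP-Cre Nkx2-1 counts, so no single cell carried the level. After thinning the shares were 0%, 10.8% and 9.59%.

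Nkx2-1-positive OPCs were set beside the other OPCs of their library for Gpr17 and for cycling genes. Gpr17 had a UMI in 63.2% of the 19 Nkx2-1-positive Emx1-Cre OPCs (38.4 to 83.7) and 36.8% of the 106 others (27.6 to 46.7). In the hGFAP-Cre library the shares were 42.9% of 28 (24.5 to 62.8) and 37.3% of 118 (28.6 to 46.7). A UMI of Mki67 or Top2a was in 21.1% of the positive and 25.5% of the other Emx1-Cre OPCs, and in 46.4% (27.5 to 66.1) and 28.0% (20.1 to 36.98) of hGFAP-Cre OPCs. All these pairs of intervals overlapped, and with so few positive cells they cover wide differences.

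Lhx2, Gsx2, Dlx1 and Dlx2 were called lower in both mutants, and Otx1 in hGFAP-Cre OPCs. Lhx2, a selector gene of the dorsal telencephalon, was at 154 CPM in control OPCs (132 to 178), 46.1 in Emx1-Cre (30.4 to 67.1) and 43.9 in hGFAP-Cre OPCs (32.4 to 58.2). It was detected in 66.2%, 13.6% and 19.2% of OPCs, and in 30.8%, 7.21% and 6.85% after thinning. The thinned shares in microglia were 7.46%, 6.25% and 8.22%, so both mutant shares lay near that background and the control share above it. Otx1 was at 24.7, 10.3 and 0 CPM, at least 8.99-fold lower in hGFAP-Cre OPCs. Gsx2, which patterns the lateral ganglionic eminence, was at 36.6, 6.83 and 13.7 CPM and is also in the early progenitor list.

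Dlx1 and Dlx2, which specify interneurons, were at 41.7 and 35.7 CPM in control OPCs, 3.42 and 3.42 in Emx1-Cre, and 5.49 and 3.66 in hGFAP-Cre OPCs. Dlx1 had a UMI in 16 of 130 control OPCs, and 3 of these cells held 57.1% of its counts. Without OPCs holding markers of another type or called doublets, the Dlx1 log2 ratio was -1.40 in both mutants, against -2.47 and -2.15 with them. Nr2f2, a factor of the caudal ganglionic eminence, was higher in both mutants at 5.10, 68.3 and 23.8 CPM, with 55% of the Emx1-Cre counts in 3 cells. Over the whole list 2 of 11 were higher and 4 lower in Emx1-Cre OPCs, with a median of -0.54, and 2 higher and 5 lower in hGFAP-Cre OPCs, with a median of -0.90.

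**Figure D4:**
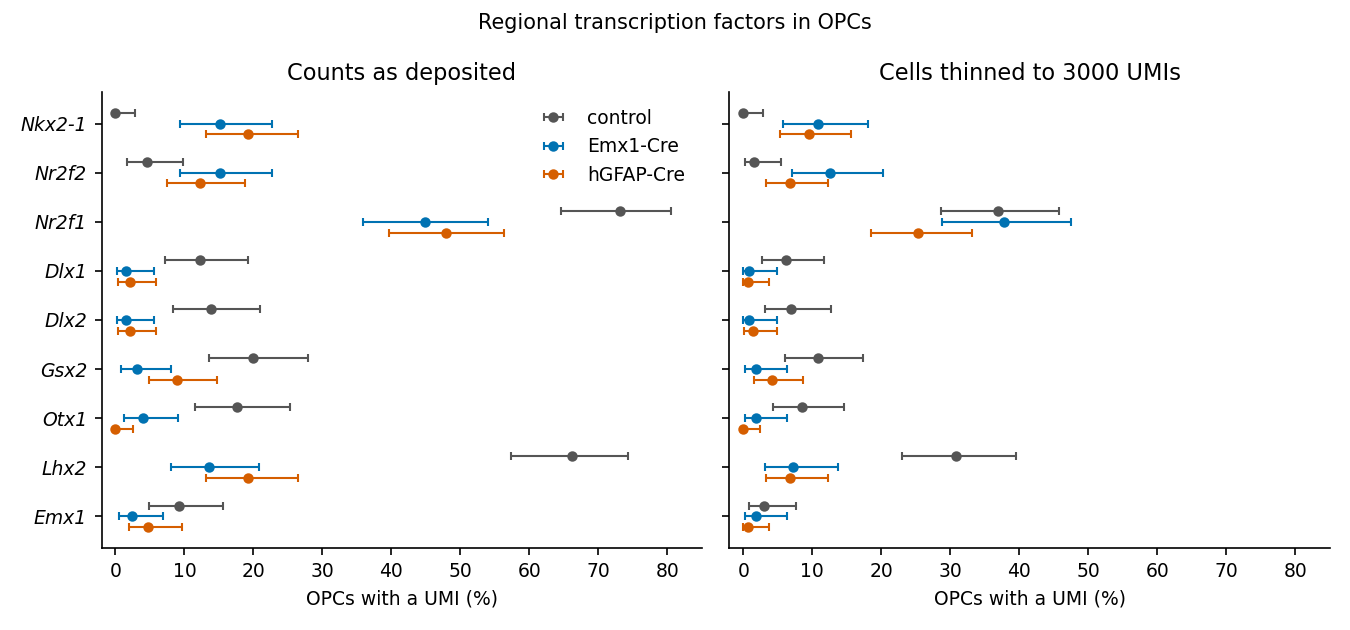
Percentage of OPCs with at least 1 UMI of each regional factor in each library, from the counts as deposited (left) and after thinning to 3000 UMIs (right), with 95% Clopper-Pearson intervals. Nkx2-1 is at 0% in control, 15.2% in Emx1-Cre and 19.2% in hGFAP-Cre OPCs, and Lhx2 at 66.2%, 13.6% and 19.2%, or 30.8%, 7.21% and 6.85% after thinning.

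Some receptors for secreted patterning signals were lower in both mutants. Of 3 measured SHH pathway genes, the co-receptors Cdon and Gas1 were lower in both, and the other was not called in either. Among all genes, 6.7% were called lower in Emx1-Cre and 4.71% in hGFAP-Cre OPCs. Cdon was at 45.1 CPM in control, 6.83 in Emx1-Cre and 10.1 in hGFAP-Cre OPCs, and Gas1 at 117, 44.4 and 52.1 CPM. The WNT receptors Fzd9 (27.2, 5.12 and 4.57 CPM) and Fzd2 (35.7, 10.3 and 10.98 CPM) were the 2 of 10 WNT pathway genes called, lower in both mutants. All 4 receptors had control intervals above those of both mutants.

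NOTCH pathway genes were called in both directions in Emx1-Cre OPCs. Of 11 measured genes in Emx1-Cre OPCs, Jag1 and Hes1 were higher and Dll1, Dll3, Mfng and Numb lower, and of 10 in hGFAP-Cre OPCs Dll1, Dll3 and Mfng were lower. Hes1, a NOTCH effector, was at 28.1, 106 and 48.5 CPM, and Numb, an inhibitor of NOTCH, at 20.4, 1.71 and 8.23 CPM.

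ID genes block bHLH factors and respond to BMP. Of 11 measured BMP and ID genes 4 were higher in Emx1-Cre OPCs (Id1, Id2, Id3 and Chrdl1), and Id1 alone of 9 in hGFAP-Cre OPCs. Id1 was at 21.3, 73.5 and 73.2 CPM, Id2 at 90.1, 224 and 167 CPM, Id4 at 31.5, 30.7 and 24.7 CPM and Id3 at 84.2, 439 and 173 CPM. The top 3 cells held 41.9% of the Emx1-Cre and 35.0% of the hGFAP-Cre Id1 counts, and 35.4% of the Emx1-Cre Id3 counts. Without OPCs holding markers of another type or called doublets, the Id1 log2 ratio in hGFAP-Cre over control was 0.91, against 1.57 with them. Id3 was also higher in the mutants' microglia, at 26.6, 183 and 76.5 CPM, and neurons, at 8.52, 87.6 and 106 CPM, and the part of free RNA in the OPC values was not tested.

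Matrix, receptor and lipid genes are used by maturing OPCs. Of 13 proteoglycan and matrix genes 5 were higher in Emx1-Cre OPCs (Tnc, Sulf2, Cspg4, Ncan and Cspg5) and none lower. Sulf2 alone of 12 was higher in hGFAP-Cre OPCs, and its log2 ratio of 1.21 there was 0.46 with the rule applied again after thinning. Of all genes, 10.4% and 5.16% were called higher in these comparisons. Sulf2, an extracellular sulfatase, was at 66.3, 256 and 160 CPM. Tnc was at 11.1, 132 and 23.8 CPM, but 3 cells held 66.2% of its Emx1-Cre counts. For Ncan the top 3 cells held 34.9% of the Emx1-Cre counts. Of 13 glutamate and GABA receptor genes, Gria3, Gria4, Gabrg1 and Gabra2 were higher and Grik2 lower in Emx1-Cre OPCs, and Gabrg1 alone of 11 was called in hGFAP-Cre OPCs. Gria3 was at 45.9, 178 and 86.0 CPM and Gabrg1 at 13.6, 66.6 and 34.8 CPM.

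Cholesterol synthesis, which supplies myelin membrane, had 6 of 17 genes higher in Emx1-Cre OPCs and none lower, with a median of 0.81. The shares of all genes called higher were 10.4% in Emx1-Cre and 5.16% in hGFAP-Cre OPCs. In hGFAP-Cre OPCs Hsd17b7 and Sc5d were higher among 18, with a median of 0.60, which was 0.20 with the rule applied again after thinning. Fdft1 was at 47.6, 120 and 76.8 CPM and Sc5d at 22.1, 59.8 and 53.1 CPM. The same list had medians of -0.40 and -0.62 in the Egfr and Olig progenitors and -0.77 and -0.11 in astroglia.

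**Figure D5:**
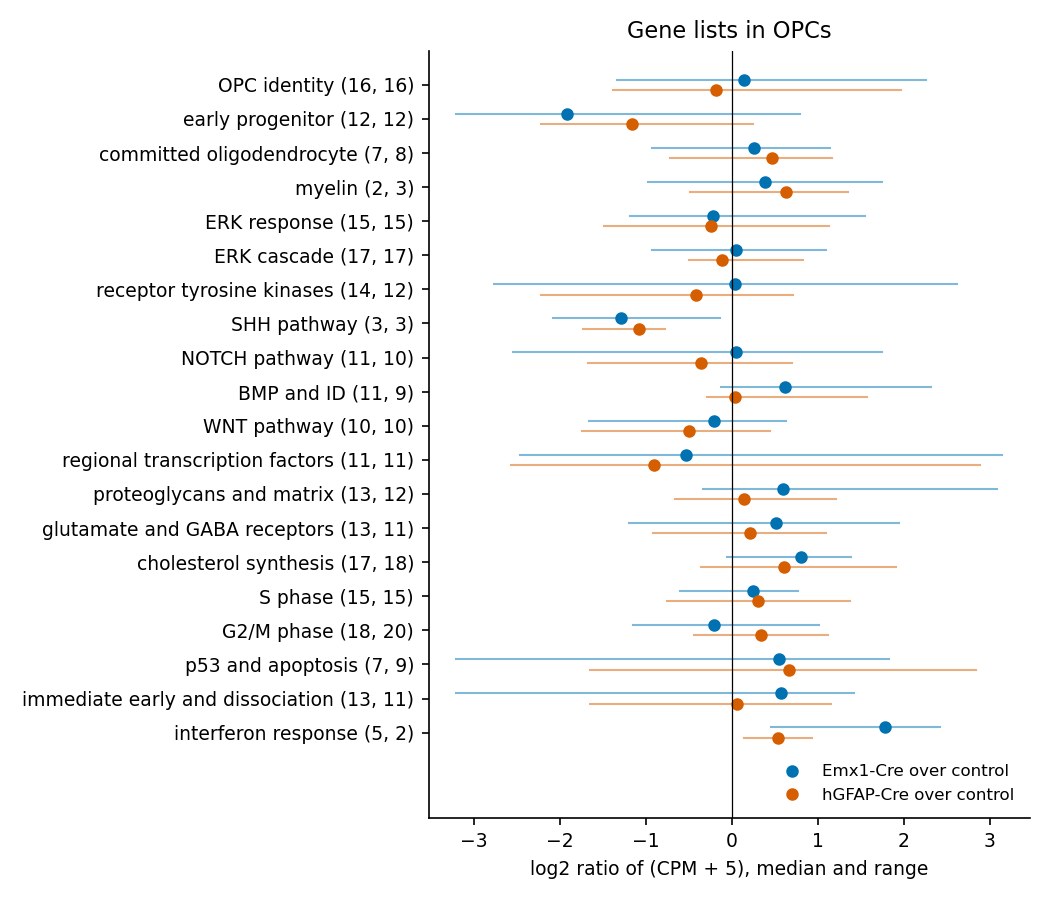
Median (point) and range (line) of the log2 ratio of (CPM + 5) over the members of each gene list in OPCs, for both mutants over the control, with the number of measured members in brackets. The early progenitor list has the lowest medians, -1.92 and -1.17.

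Cycling shares were higher in hGFAP-Cre than in control OPCs, with overlapping intervals. Over the settings tried the log2 ratio of these shares ran from 0.22 to 1.12, and for Emx1-Cre over control from -0.25 to 0.81. A UMI of Mki67 or Top2a was found in 15.4% of thinned control OPCs (9.66 to 22.8), 22.5% of Emx1-Cre (15.1 to 31.4) and 26.7% of hGFAP-Cre OPCs (19.7 to 34.7). Unthinned shares were 17.7%, 24.8% and 31.5%, against 2.61%, 5.59% and 4.29% of neurons. The levels of Mki67 (139, 59.8 and 125 CPM) and Top2a (255, 179 and 223 CPM) were highest in the control. They did not follow the shares, which are given as values. The G2/M list had a median of -0.20 in Emx1-Cre OPCs, with 1 of 18 higher and 2 lower, and 0.33 in hGFAP-Cre OPCs, with 2 of 20 higher. In the S phase list none of 15 was called in Emx1-Cre OPCs, and Pcna and Gins2 were higher in hGFAP-Cre OPCs. With the rule applied again after thinning, their log2 ratios went from 1.10 to 0.29 and from 1.38 to 0.84, below the call.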

How the data were processed

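Counts of UMIs per gene and barcode were deposited by the authors, made with Cell Ranger 5.0.0 per the file headers and build mm10 per the submitters' processing notes, and held 27998 genes. Here, cells were filtered and chosen by the stated rule, which uses Pdgfra and Sox10 counts. The members and the 20 gene lists were chosen with earlier results of these data known. UMIs were summed over OPCs per library and scaled to CPM, with exact Poisson intervals; shares have exact Clopper-Pearson intervals; ratios of summed counts have exact conditional intervals. Named genes were, per comparison, the markers and targets, up to 4 members per list with the largest log2 ratio and intervals apart, and 6 each way outside lists at 50 CPM or more; further list members are named to account for counts or beside these. Level and fold steps were tested on simulated data. Coordinates come from GENCODE M21 (GRCm38), matched for 421 of 421 gene IDs. Scrublet ran within scanpy 1.11.5 at an expected 10% of doublets. Python 3.11.15 was used with scipy 1.17.1, numpy 2.4.6, pandas 2.3.3 and matplotlib 3.10.9. Some genes withheld for evaluation are counted in lists but not reported here. Alternatives changed the thresholds, pseudocount, thinning, doublets and membership rule.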

Additional observations from a re-analysis of the deposited data

How the results depend on the processing

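No paired analysis was possible because each genotype is 1 library. The list medians past 2-fold (early progenitor and SHH in both mutants, interferon in Emx1-Cre OPCs) kept their sign under every alternative. The SHH median equalled the Gas1 value in both mutants, and over the alternatives it shrank to -0.37 in Emx1-Cre and -0.30 in hGFAP-Cre OPCs. Depth limits the Emx1-Cre OPCs most: 41 had 2000 genes, against 130 control and 141 hGFAP-Cre OPCs. Leaving out members with other types' markers, or called doublets, and applying the rule again after thinning were chosen after seeing the data. The cause of each change below was not tested.

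The log2 ratio of OPC shares, -0.46 for Emx1-Cre over control, was -1.46 at 2000 genes and -1.66 with at least 2 UMIs of both genes. For hGFAP-Cre over control, -0.23, it was -0.83 with 2 UMIs and -0.65 without excitatory cells in the denominator. For hGFAP-Cre over Emx1-Cre, 0.23, it was 1.54, 0.84 with 2 UMIs, and -0.24 after thinning.

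The number of genes called depended on the call. In Emx1-Cre over control, 751 higher became 370 with a pseudocount of 20 CPM, 1326 with no filter, 400 at 50 CPM and 1608 at 1.5-fold. The 482 lower became 165, 777, 235 and 1239 in that order, 944 with 2 UMIs and 862 with the rule reapplied. In hGFAP-Cre over control, 356 higher became 169, 589, 206 and 1028, 604 thinned and 854 reapplied, and 325 lower became 96 (20 CPM), 155 (50 CPM), 1134 (1.5-fold), 562 thinned, 504 with 2 UMIs and 810 reapplied. In hGFAP-Cre over Emx1-Cre, 100 higher became 174 with a pseudocount of 1 CPM, 18, 281, 32 and 477 in the first order, 245 thinned, 208 without cycling cells, 577 with 2 UMIs and 456 reapplied, and 232 lower became 75, 571, 79 and 871, 390 thinned, 661 with 2 UMIs and 594 reapplied.

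Single genes changed sign as follows. Without cycling cells, Ccnb2 (-0.29) and Cdkn1a (-0.33) did in Emx1-Cre over control. With 2 UMIs, Cdkn1a (-1.34) and Ndnf (-0.33) did there and Spint2 (0.50) in hGFAP-Cre over Emx1-Cre. With the rule reapplied, Ndnf (-0.94) did in Emx1-Cre over control, Cdk1 (-0.57) in hGFAP-Cre over control, and Tnc (0.29) and Zfp36 (0.032) in hGFAP-Cre over Emx1-Cre. Without members holding other markers Dynlrb2 (0.0076) did in the last.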

Other observations

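Several genes outside the lists were found in many control OPCs and in no Emx1-Cre OPC. Helt, a bHLH repressor, was at 73.1 CPM in 47 control OPCs, 0 in Emx1-Cre and 3.66 CPM in 2 hGFAP-Cre OPCs. It was at least 14.3-fold lower in Emx1-Cre OPCs, against a floor of 3 counts. Mfap4, a matrix protein (60.4, 0 and 3.66 CPM), and Dbx2, a homeodomain factor (53.6, 0 and 9.15 CPM), had the same order. Each had UMIs in 40 or more control OPCs and in none of the 125 Emx1-Cre OPCs, where a count of 0 allows 5.12 CPM.

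Higher in both mutants, S100a6, a calcium binding protein, was at 26.4, 296 and 430 CPM in 17, 64 and 88 OPCs. Resp18 was at 14.5, 237 and 164 CPM and Pnlip, a lipase, at 2.55, 104 and 60.4 CPM. Rasl11a, a small GTPase, was at 61.2, 536 and 481 CPM in 28, 100 and 88 OPCs. These genes were spread over many cells. By contrast Meig1, at 150 CPM in Emx1-Cre OPCs, lay in 6 cells, 3 of which held 96.6% of its counts, and its log2 ratio of 4.73 over control was 0.94 without OPCs holding markers of another type or called doublets.

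The mutants differed from each other in single genes. Trnp1, a nuclear protein of radial glia, was at 18.7 CPM in control, 144 in Emx1-Cre and 1.83 in hGFAP-Cre OPCs. Draxin, a repulsive axon guidance protein, was at 123, 13.7 and 60.4 CPM. Prm1, a sperm protamine, had 0 UMIs in control and Emx1-Cre OPCs and was at 313 CPM in hGFAP-Cre OPCs, where 81 of 146 cells held it (55.5%, interval 47.0 to 63.7). Whether these tags come from the native gene or from transgene sequence was not tested. In the hGFAP-Cre library Prm1 had a UMI in 97.2% of astroglia, 75.4% of Egfr and Olig progenitors, 22.9% of neurons and 10.96% of microglia. Of the hGFAP-Cre OPCs with Prm1, 17.3% held Egfr (9.78 to 27.3), against 1.54% of those without (0.039 to 8.28). For Nkx2-1 the shares were 13.6% (6.98 to 23.0) and 26.2% (16.0 to 38.5), with overlapping intervals.

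Cdkn1a, a p53 target, was at 5.95, 30.7 and 73.2 CPM, in 3, 8 and 19 OPCs, with 72.2% of the Emx1-Cre and 56.3% of the hGFAP-Cre counts in 3 cells. For Cdkn1a in Emx1-Cre over control the log2 ratio of 1.71 turned to -0.33 without cycling cells and to -1.34 with at least 2 UMIs of Pdgfra and Sox10. Phlda3, another p53 target, was at 16.2, 70.03 and 75.01 CPM. Of 5 measured genes in the interferon response list, 3 were called higher in Emx1-Cre OPCs, where 10.4% of all genes were. Among them was B2m, the light chain of MHC class I, at 32.3, 123 and 65.9 CPM. Another of the 3 had 77.8% of its Emx1-Cre counts in 3 cells. The listed genes Ifit1, Ifit3, Irf7, Rsad2 and Usp18 had 0 UMIs in the OPCs of every library, and Isg15 had 1, 0 and 1. The calls thus do not show a response across the list. Of 13 immediate early genes, which dissociation can induce, Fosb, Zfp36 and Nr4a1 were higher and Btg2 and Egr1 lower in Emx1-Cre OPCs, and of 11 in hGFAP-Cre OPCs Fosb was higher and Btg2, Ier2 and Egr1 lower.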
